A study of Mus musculus with 24 samples.

Results

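The RNA of cardiomyocyte nuclei was compared at postnatal day 7 (P7) between hearts with and without Casp2 in cardiomyocytes, and 8 of the 24 libraries of the study enter this comparison. The 4 Casp2-depleted libraries came from XMLC2+Casp2fl/fl mice, in which Cre recombinase under the XMLC2 promoter removes floxed Casp2 in cardiomyocytes. The 4 control libraries came from XMLC2-Casp2fl/fl mice, which carry the same floxed alleles but no Cre. No group with Cre and intact Casp2 was analysed here, so an effect of Cre and an effect of the loss of Casp2 cannot be told apart. Each library holds the nuclei of 6 pooled hearts that were sorted by flow cytometry on PCM1, a protein at the nuclear envelope of cardiomyocytes. Reads were counted per gene with a method that reads the 3′ ends of polyadenylated RNA, so a level below is a share of the RNA in these nuclei and not of the whole cell.

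Caspase-2 is a protease that is activated on the PIDDosome, a complex of PIDD1 and the adaptor RAIDD (encoded by Cradd) that assembles at extra centrosomes after a failed cell division. In cancer cells and liver cells, active caspase-2 cleaves MDM2, which stabilises p53 and stops the cell cycle of cells with too many genomes. For cardiomyocytes, the study reports that the PIDDosome limits ploidy without a need for p53. In the mouse heart, cardiomyocytes leave the cell cycle in the first weeks after birth, and most of them end as binucleated cells after a last round of DNA synthesis without cytokinesis.

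The 8 libraries held 1452114 to 2924097 reads on genes, and the share of uniquely placed reads on no gene was 34.3 to 64.3%. Levels are given as CPM (reads of a gene relative to all reads on genes), scaled by TMM factors that correct for library composition. The summed level of 10 cardiomyocyte markers (Ttn, Myh6, Actn2, Ryr2, Tnnt2, Pln, Rbm20, Mlip, Ctnna3 and Cacna1c) was 73330, 95401, 85982 and 75568 CPM before TMM scaling in the control libraries and 68532, 71610, 72706 and 54030 CPM in the Casp2-depleted libraries, without overlap (exact two-sided permutation test, p = 0.0286, the smallest that 4 against 4 allows, and 0.543 after Benjamini-Hochberg adjustment over 19 library measures). With TMM factors the groups overlapped, at 87560 to 166274 CPM and 55156 to 102144 CPM. Summed markers of other cell types were far lower and overlapped, with 205 to 399 CPM in control and 213 to 651 CPM in Casp2-depleted libraries for 10 endothelial markers, 91.3 to 254 and 119 to 227 CPM for 10 fibroblast markers, and 97.5 to 196 and 99.5 to 383 CPM for 10 macrophage markers. Among the markers, Egfl7 of endothelium, Cd68 of macrophages and Upk3b of epicardium had 0 reads in all 8 libraries. Other markers of these types were read, such as Pecam1 of endothelium (478 reads in control and 682 in Casp2-depleted libraries). Cx3cr1 of macrophages had 416 and 332 reads, and Wt1 of epicardium 175 and 202 reads. Casp2-depleted replicate 1 stood apart, with 5854 CPM on mitochondrially encoded genes against 1521 to 2100 CPM in the other libraries. Of the endothelial markers 5 were well read, and all 5 had a higher mean in Casp2-depleted nuclei, with a median log2 difference of 0.50. Of the 9 that were tested 7 were higher, while Cdh5 (93 reads in control and 74 in Casp2-depleted libraries) and Tek (233 and 176 reads) were lower. In bulk nuclei, fewer nuclei of a type and less RNA per nucleus cannot be told apart.

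The targeted gene could not check the labels. Casp2 (chr6:42241918-42259443 on GRCm39) was at 2.61, 2.16, 0.655 and 0 CPM in the control libraries and at 2.34, 2.38, 0 and 0 CPM in the Casp2-depleted libraries, and the deleted part of the gene was not located here. Pidd1 was also hardly read, with a read in 1 library of each genotype, at 16.6 CPM in control replicate 2 and 6.19 CPM in Casp2-depleted replicate 3. Cradd, the adaptor between both proteins, was well read. Its level was 141, 197, 130.2 and 166 CPM in control and 181, 193, 144 and 175 CPM in Casp2-depleted libraries, a log2 difference of 0.13 (SE 0.72). Fitted among the well-read genes of P7 alone, the 95% interval of the Cradd difference ran from -0.47 to 0.94 on the log2 scale. Ankrd26, whose protein anchors the PIDDosome at centriolar appendages, was at 107.7, 149, 73.3 and 169 CPM in control and 117, 117, 77.0 and 26.0 CPM in Casp2-depleted libraries, where replicate 4 was the lowest.

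Across all genes, no difference between the genotypes passed the test. With edgeR's quasi-likelihood test over 20368 genes and 21 libraries, 0 genes were called at P7 at an adjusted p below 0.05 and a fold change above 2 (0% of genes tested), and the lowest adjusted p was 1. At an unadjusted p below 0.05 there were 860 genes (4.22% of genes tested), 413 higher (2.03%) and 447 lower (2.19%) in Casp2-depleted nuclei. The depth is concentrated in few genes. A gene was taken as well read at a mean of at least 50 CPM over the 8 libraries, which 4053 genes reached, 19.9% of those tested, and they held 83.2% of the reads. They comprised 3776 protein-coding genes and 257 long noncoding RNAs. Their coefficient of variation between replicates had a median of 0.380 in control and 0.445 in Casp2-depleted libraries.

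When only the 8 libraries of P7 and the well-read genes were fitted, the 95% interval of the log2 difference had a median half-width of 0.99, against 1.58 for the same genes in the fit over 21 libraries. In this narrower fit, 874 well-read genes (21.6%) had an interval that lay wholly within a 2-fold difference in either direction. There, 107 genes had an unadjusted p below 0.05 (2.64%), 55 higher (1.36%) and 52 lower (1.28%), and the lowest adjusted p was 0.996 with edgeR.

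The replicate numbers were taken to pair the libraries of P7, an assumption that rests on correlations within these same libraries. The fit of these 8 libraries with the replicate number as a block called 8 of 17656 genes (0.0453%), all of them lower in Casp2-depleted nuclei. With the same block in the fit over 21 libraries 0 genes were called, with 239 at an unadjusted p below 0.05, and in the fit over the well-read genes of P7 alone 0 genes were called, with 266 at an unadjusted p below 0.05. Without a block, limma-voom called 0 genes with TMM factors and 1 with quantile normalization, and DESeq2 on the 21 libraries called 25 genes (0.123%), 10 higher and 15 lower. None of the 25 was well read, and 24 had 0 reads in all P7 libraries of 1 genotype. One of them was Pygo2, which encodes a cofactor of Wnt signalling, with 29.3, 10.1, 22.9 and 17.2 CPM in control libraries, 128 reads in all, and 0 reads in the 4 Casp2-depleted libraries.

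Without a test, genes can be sorted by whether every Casp2-depleted library lay above or below every control library. This held for 64 well-read genes (1.58% of 4053), 29 higher (0.716%) and 35 lower (0.864%), and for 334 of all 20368 genes (1.64%), 142 higher (0.697%) and 192 lower (0.943%). For a gene without ties, a share of 0.0286 of the 70 groupings of 8 libraries into 4 and 4 separates completely. Both shares of genes lie below it, so the genes named below are a description only. The split moved with the scaling. Of the 64 genes, 36 kept their separation without TMM factors (24 of the higher and 12 of the lower) and 62 with RLE size factors. When the minimum of 50 CPM was also applied on the other scale, 37 of 3235 genes were higher and 26 lower without TMM factors (30 shared with the 64), and 20 of 3191 were higher and 31 lower with RLE size factors (48 shared). Without TMM factors, the median log2 ratio over all well-read genes moved by 0.11, from -0.06 to 0.05. Casp2-depleted replicate 1 set the count more than any other library. Without it, 132 genes were higher and 287 lower (10.3% of 4069), whereas without any other single library the count was 119 to 160. With a library left out, complete separation is easier than for 4 against 4. These counts therefore cannot be read against the share of 0.0286.

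**Figure D1:**
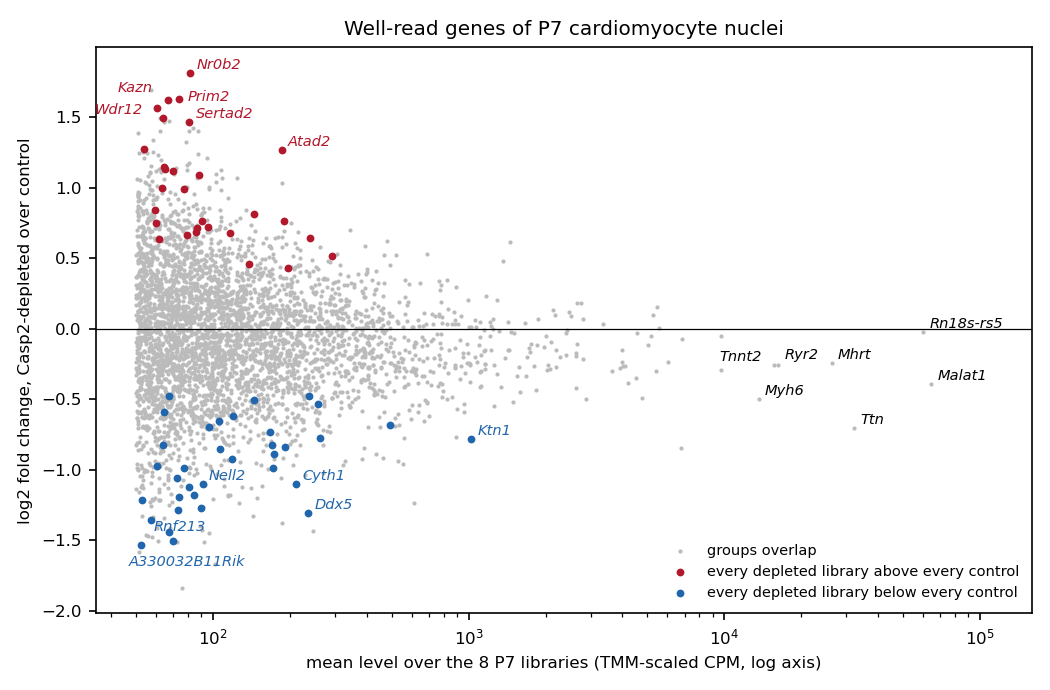
Each grey point is 1 of 4053 well-read genes, with its mean level in CPM over the 8 P7 libraries on a log axis and its log2 difference, Casp2-depleted minus control, on the vertical axis. Coloured points are the 29 genes higher and the 35 genes lower in every Casp2-depleted library than in every control library. The coloured names mark those of each direction with the largest test statistic, and the black names mark the most read genes.

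Of the 29 higher genes, the 12 with the largest test statistic are given first by nuclear roles. Nr0b2 (chr4:133280678-133283847) encodes SHP, an orphan nuclear receptor without a DNA-binding domain that represses other nuclear receptors. It was at 15.7, 51.9, 59.6 and 16.5 CPM in control and at 93.0, 189, 112 and 112 CPM in Casp2-depleted libraries, a log2 difference of 1.82 (SE 0.92). Nr0b2 was the only well-read gene with an unadjusted p below 0.05 in the edgeR fit over 21 libraries. Prim2, the large subunit of the DNA primase that starts each new DNA strand, was at 30.3, 38.9, 60.9 and 13.5 CPM in control and at 77.5, 99.1, 92.9 and 176 CPM in Casp2-depleted libraries (log2 difference 1.63, SE 0.87). Atad2, a chromatin ATPase with a bromodomain, was at 69.5, 139, 63.5 and 165 CPM against 197, 457, 193 and 203 CPM (1.26, SE 0.73), and Casp2-depleted replicate 2 held the highest value. Sertad2, whose protein modulates transcription by E2F factors, was at 60.6, 32.4, 56.3 and 22.5 CPM against 121, 116, 157 and 81.5 CPM (1.47, SE 0.86). Stag1, a subunit of the cohesin ring that holds sister chromatids together, was close among the controls, at 201, 189, 181 and 174 CPM, and at 402, 239, 252 and 275 CPM in Casp2-depleted libraries (0.65, SE 0.55). The gap was narrow for Stag1, and it closed without TMM factors, whereas the other 11 genes kept their separation on that scale and all 12 kept it with RLE size factors.

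The others of these 12 act mainly at membranes, the cytoskeleton and the nucleolus. Kazn, which encodes the adhesion-associated protein kazrin, was at 19.3, 59.1, 20.9 and 31.5 CPM in control and at 65.9, 163, 86.7 and 87.2 CPM in Casp2-depleted libraries (log2 difference 1.62, SE 0.85). Dock9, an activator of the small GTPase Cdc42, had a log2 difference of 1.50 (SE 1.03), from 16.2 to 43.2 CPM in control and 53.7 to 114 CPM in Casp2-depleted libraries. Ptk2 encodes focal adhesion kinase, which signals from integrins, and was at 49.5 to 141 CPM against 149 to 245 CPM (0.81, SE 0.63). Numb, a protein of asymmetric cell fate and of endocytosis, was among the closest within groups, at 171, 139, 149.9 and 100.5 CPM in control and 237, 277, 223 and 217 CPM in Casp2-depleted libraries (0.77, SE 0.60). Wdr12, a factor of ribosome assembly in the nucleolus, was at 24.2 to 34.5 CPM against 47.2 to 169 CPM (1.57, SE 1.04). The zinc transporter gene Slc39a11 (1.09, SE 0.82) and Lrrc8c, a subunit of volume-regulated anion channels (1.28, SE 1.06), complete the set.

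Among the 35 lower genes, the largest test statistic belonged to Ddx5 (chr11:106671180-106680024), an RNA helicase of transcription and splicing. Ddx5 was tight among the controls, at 323, 346, 312 and 366 CPM, and at 236, 69.8, 140.3 and 96.3 CPM in Casp2-depleted libraries, a log2 difference of -1.31 (SE 0.71). It was the only one of these 24 genes that was also called with the replicate block, where it fell by 1.44 on the log2 scale (edgeR, adjusted p = 0.0404). Ddx5 and Cep95 overlap on opposite strands over 6.26% of Ddx5. As the strand setting of the counting is not given in the sources used here, their reads are uncertain within that overlap. Ktn1, which encodes the kinesin anchor kinectin of the endoplasmic reticulum, was at 945, 1746, 1456 and 1045 CPM in control and at 883, 733, 927 and 476 CPM in Casp2-depleted libraries (-0.78, SE 0.44). It had the most reads of the 24 genes, and its groups nearly touched. Cyth1, an activator of ARF GTPases, was at 265, 328, 241 and 316 CPM against 193, 90.4, 138 and 115 CPM (-1.10, SE 0.68).

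Nrap and Xirp2, which encode actin-binding proteins of myofibril assembly and the intercalated disc, were both in this set. Nrap was at 246, 228, 263 and 174 CPM in control and at 174, 123, 109 and 54.8 CPM in Casp2-depleted libraries (-0.98, SE 0.72). Xirp2 was at 304, 279, 315 and 421 CPM in control and at 258, 182, 223 and 106 CPM in Casp2-depleted libraries (-0.78, SE 0.57). For both genes Casp2-depleted replicate 1 was nearest to the controls, and replicate 4 was the farthest. Crebbp, the histone acetyltransferase CBP, was at 475, 983, 488 and 490.4 CPM against 462, 435, 347 and 275 CPM (-0.68, SE 0.51), and control replicate 2 stood above the other controls.

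The remaining lower genes of the set span lipid, protein and signalling roles. They were Rnf213, a very large ubiquitin ligase (log2 difference -1.28, SE 0.93), Cds2, an enzyme of phosphatidylinositol synthesis (-1.44, SE 1.07), Ide, the insulin-degrading protease (-0.89, SE 0.65), the secreted glycoprotein gene Nell2 (-1.10, SE 0.76), and Entrep1 (-1.50, SE 1.09). Rnf213 was at 92.0, 117, 113 and 93.0 CPM in control and at 63.5, 30.9, 39.9 and 35.9 CPM in Casp2-depleted libraries, so that both groups were narrow. The long noncoding RNA A330032B11Rik (-1.53, SE 1.11) lies wholly inside Cpeb3 on the opposite strand, and its reads cannot be told from those of Cpeb3 without strand. Without TMM factors, the separation held for Ddx5, Cyth1, Rnf213, Nrap, Cds2 and Crebbp but was lost for Ktn1, Nell2, A330032B11Rik, Entrep1, Ide and Xirp2. With RLE size factors it was lost for Nell2 only.

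**Figure D2:**
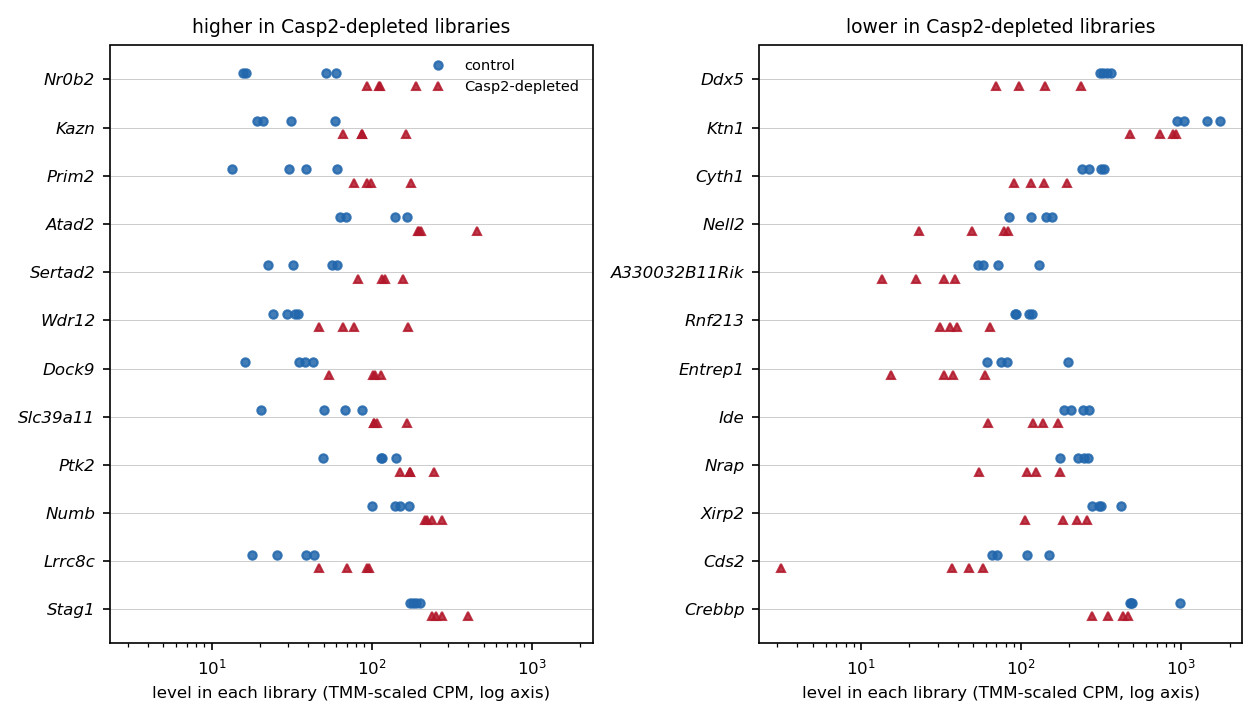
Level in CPM on a log axis of named well-read genes whose groups do not overlap, in each of the 4 control and 4 Casp2-depleted libraries of P7, with a point per library. Each gene was picked because its points do not overlap. The spread can differ between the genotypes of a gene, as for Ddx5, at 312 to 366 CPM in control and 69.8 to 236 CPM in Casp2-depleted libraries.

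The 8 genes called with the replicate block were Agrn, Mylk3, Lgals4, Ddx5, Ivns1abp, Mff, Dmpk and Pbxip1, with adjusted p of 0.0177 to 0.0490 by edgeR. Apart from Ddx5 they are named here after their values were seen. In each of these 8 genes the ratio of the Casp2-depleted to the control library of the same number was nearest to or above 1 in replicate 1. Agrn encodes agrin, a proteoglycan of the extracellular matrix, and was at 205, 229, 139 and 64.5 CPM in control and at 212, 3.96, 61.9 and 3.52 CPM in Casp2-depleted libraries, where it fell by 2.46 on the log2 scale in the blocked fit. Mylk3, the cardiac myosin light chain kinase, was at 969.8, 793, 643 and 368 CPM against 795, 266, 329 and 58.3 CPM, and fell by 1.34. Dmpk, the kinase named for myotonic dystrophy, was at 192, 239, 111 and 76.5 CPM against 97.6, 46.8, 41.3 and 8.44 CPM, and fell by 1.92. For Agrn, Mylk3 and Dmpk the controls differed among themselves by more than 2-fold, and each Casp2-depleted library but replicate 1 of Agrn was below the control of the same number.

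Lgals4, which encodes a galectin, was at 289, 229, 344 and 216 CPM in control and at 222, 38.8, 75.7 and 76.6 CPM in Casp2-depleted libraries. Ivns1abp, an actin-binding kelch protein, was at 844, 419.9, 318 and 120.0 CPM against 603, 109, 109 and 49.2 CPM. Mff, whose protein recruits the fission machinery to mitochondria, was the only one of the 8 that was not well read, at 147, 59.8, 28.1 and 18.0 CPM against 108.4, 0, 1.38 and 0 CPM. Pbxip1 was at 134, 234, 230.4 and 230.2 CPM against 236, 36.5, 61.9 and 26.7 CPM. In Agrn and Pbxip1, Casp2-depleted replicate 1 lay above its control, and it was the highest Casp2-depleted library for all 8 genes. Without the block, none of the 8 was called, with log2 differences of -1.67 (Dmpk) to -0.94 (Mylk3).

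**Figure D3:**
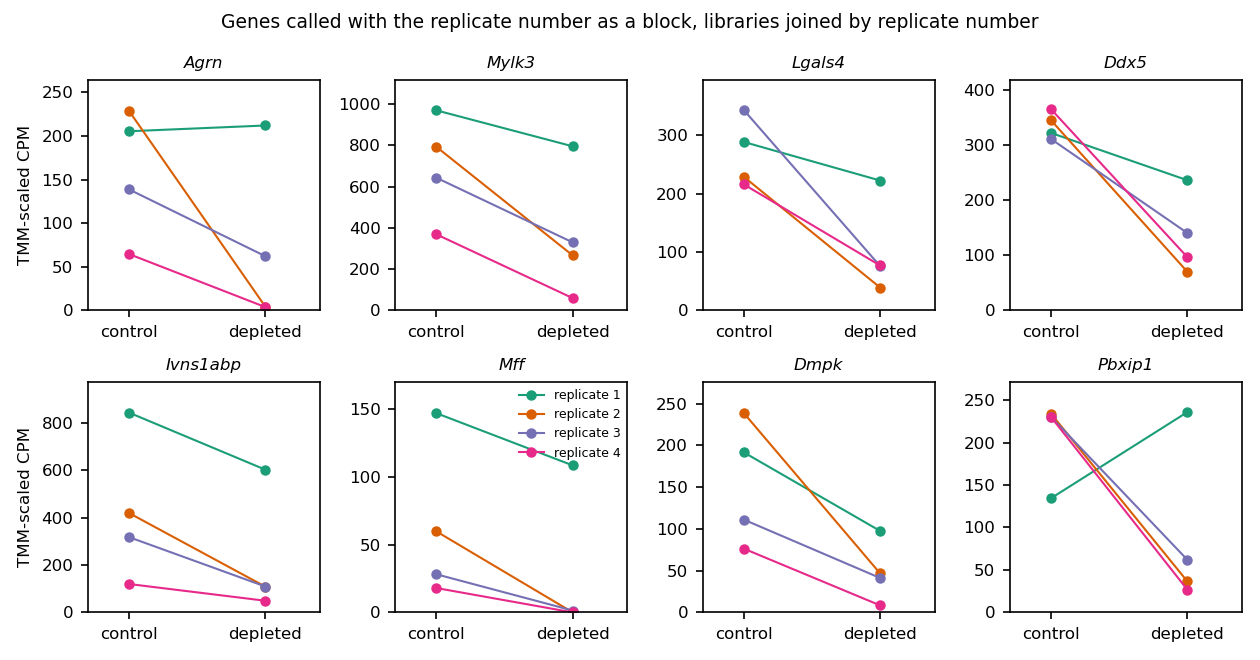
Level in CPM of the genes called when the replicate number was a block, with a line joining the control and the Casp2-depleted library of the same replicate number. The line of each gene falls in replicates 2, 3 and 4. In replicate 1 the ratio of its ends is the nearest to 1 or, for Agrn and Pbxip1, above 1.

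Gene groups were described by counts and medians only, beside the well-read genes as a whole, of which 1796 (44.3%) were higher in Casp2-depleted nuclei with a median log2 difference of -0.06. No member of any list was called at P7 by edgeR over 21 libraries without the block; Ddx5 and Mylk3, called with it over the 8 P7 libraries, belong to the lists of splicing proteins and of filaments. In the contractile apparatus most members were lower. Of 23 well-read genes of the thick and thin filaments, 4 were higher and 19 lower, with a median of -0.42, and without TMM factors 18 were lower. Without single libraries the median was -0.58 to -0.24, nearest to 0 without Casp2-depleted replicate 4 or control replicate 2. Myl3, a light chain of ventricular myosin, was at 493, 292, 294 and 151 CPM in control and at 348, 60.3, 109 and 83.7 CPM in Casp2-depleted libraries (log2 difference -1.03, SE 1.65), while Myh7, the fetal heavy chain, was at 13.5 to 93.6 CPM against 46.0 to 101 CPM (0.56, SE 0.80). Most of the span of Myh7 is shared with Mhrt, a noncoding RNA of the opposite strand, so the reads of Myh7 are uncertain. The groups overlapped for every filament gene.

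At the Z-disc and costamere, 18 of 22 well-read genes were lower, with a median of -0.32 (14 of 22 without TMM factors). That median was -0.70 without Casp2-depleted replicate 1 and -0.06 without control replicate 2. Csrp3, the muscle LIM protein, was at 143, 129.6, 53.7 and 8.25 CPM in control and at 75.7, 27.7, 15.1 and 13.4 CPM in Casp2-depleted libraries (-1.34, SE 1.30), and overlapped. Of 17 intercalated disc genes 13 were lower (median -0.12), but 9 without TMM factors, among them Tmem65, which is needed for the connexin of the disc (-1.13, SE 1.26), while Cxadr, an adhesion receptor of the disc, had the highest difference (0.84, SE 1.04). The median of the disc list changed sign without control replicate 2, Casp2-depleted replicate 3 or Casp2-depleted replicate 4. Calcium handling of the sarcoplasmic reticulum had 15 of 21 genes lower (median -0.26), sodium channels and transporters 11 of 13 (median -0.20, and 8 of 13 without TMM factors), and cyclic nucleotide signalling 16 of 22. In the last list Adcy5, a main adenylyl cyclase of cardiomyocytes, was lower in every Casp2-depleted library, at 165, 193, 144 and 178 CPM against 138, 111, 93.6 and 136 CPM (-0.51, SE 0.73), a separation that was lost without TMM factors. Potassium channels had 9 of 16 genes higher (median 0.12), a sign that was lost without Casp2-depleted replicate 1 or control replicate 4. The lower share of cardiomyocyte markers before TMM scaling runs beside these counts, and its part in them was not tested.

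**Figure D4:**
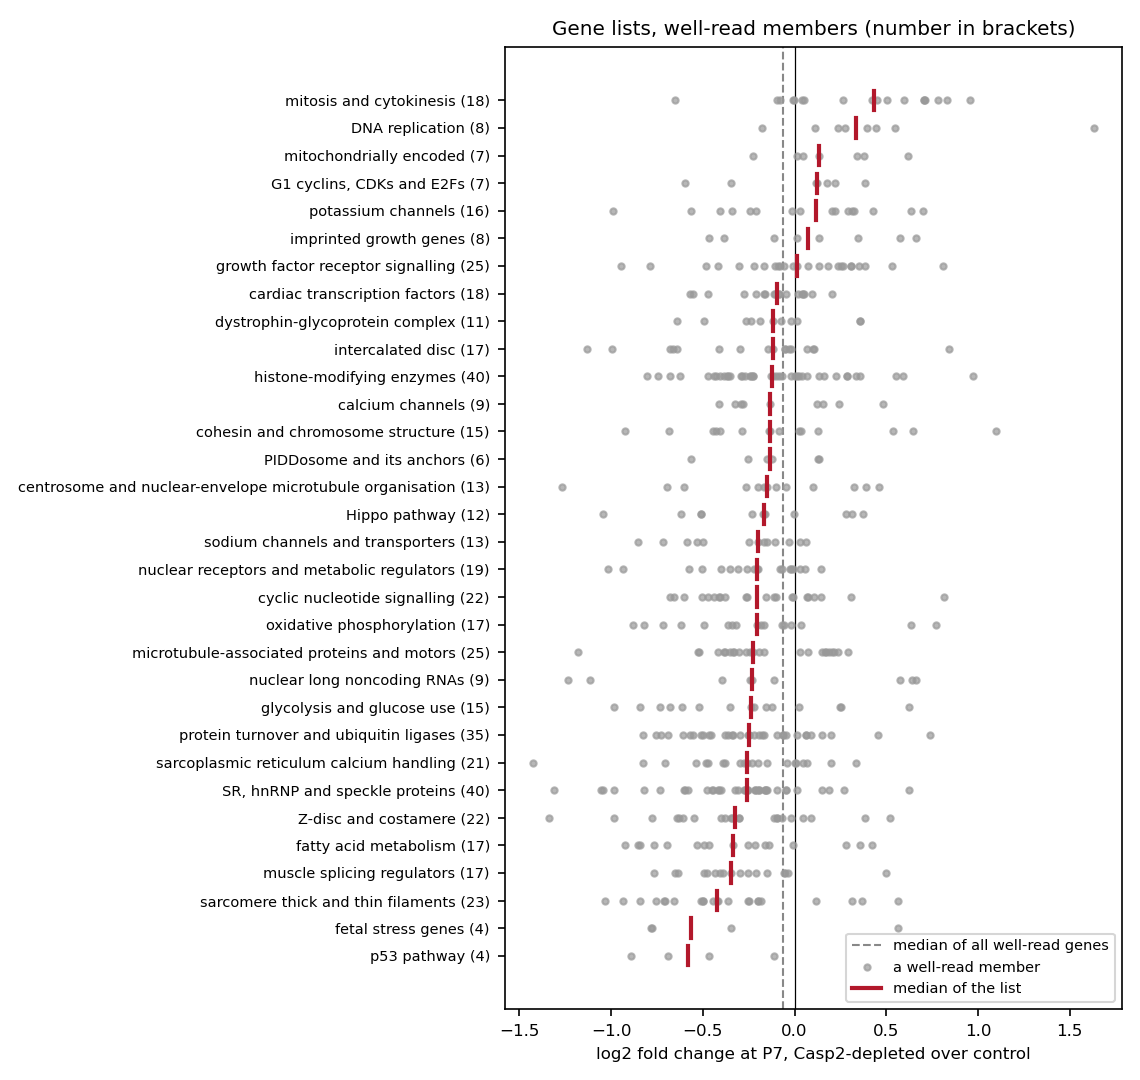
Log2 difference, Casp2-depleted minus control at P7, of the well-read members of each gene list. Each point is a gene and the bar is the median of the list; the dashed line marks the median of all well-read genes at -0.06. The mitosis list lies to the right of that line, with 13 of 18 genes above 0, and the filament, splicing and fatty acid lists lie to its left.

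Genes of cell division were on the other side. Of 60 genes of mitosis and cytokinesis 58 were tested, 41 higher and 17 lower, and of the 18 well-read ones 13 were higher and 5 lower, with a median of 0.44 (16 of 18 without TMM factors). The median was 0.21 without control replicate 1 and 0.30 to 0.59 without any other single library. Of these 58 genes 1 had an unadjusted p below 0.05, beside 4.22% of all genes tested. The well-read endothelial markers, with 5 of 5 higher and a median of 0.50, and the lower share of cardiomyocyte markers before TMM scaling run beside these counts, and their part in them was not tested. Anln, the anillin scaffold of the contractile ring, was the 1 well-read member of 18 whose groups did not overlap, beside 1.58% of all well-read genes. It was at 79.5, 74.9, 38.0 and 69.7 CPM in control and 114, 95.9, 86.7 and 134 CPM in Casp2-depleted libraries (0.71, SE 0.83). Incenp, the scaffold of the chromosomal passenger complex, was at 56.5, 462, 257 and 271 CPM against 306, 684, 324 and 389 CPM (0.70, SE 0.62). Kifc1, a minus-end kinesin that clusters extra centrosomes, was at 11.5, 79.2, 67.4 and 34.5 CPM against 81.3, 99.9, 59.9 and 133 CPM (0.96, SE 1.00). Ckap5, a microtubule polymerase, had the lowest difference of the list (-0.65, SE 0.97).

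The levels of all 60 genes of mitosis and cytokinesis were also added up within each library, before TMM scaling. The sum was 1314, 1586, 1858 and 1667 CPM in control (mean 1606 ± 226, SD, n = 4) and 2302, 2322, 2086 and 2584 CPM in Casp2-depleted libraries (2323 ± 204, SD, n = 4), so that all 4 Casp2-depleted libraries lay above all 4 controls, by 1.45-fold in the means. Of the 43 gene lists, only this list and the cardiomyocyte markers had sums without overlap before TMM scaling. For a sum without ties, a share of 0.0286 of the groupings into 4 and 4 separates completely. The mitosis sum was not tested, and the lists were chosen with earlier results of these data known, so its separation is a description only. Without Incenp, the most read of the mitosis genes named above, the mitosis ratio was 1.39 and the groups still did not overlap. With TMM factors the mitosis sums overlapped, at 1569 to 2764 CPM and 2418 to 3312 CPM. At the other days the same sum overlapped between the genotypes, at 1829 to 2430 CPM in control and 1166 to 2097 CPM in Casp2-depleted libraries of P1, and at 1489 to 2782 CPM and 2047 to 2719 CPM at P14. The P7 controls held the lowest median of the 6 groups, 1627 CPM, against 1919 to 2312 CPM.

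DNA replication had 7 of 8 well-read genes higher (median 0.33), with Prim2 as the one whose groups did not overlap, but only 26 of all 45 tested members were higher. Its summed level overlapped, at 955 to 1307 CPM in control and 1183 to 1564 CPM in Casp2-depleted libraries. The G1 list of cyclins, cyclin-dependent kinases and E2F factors had 5 of 7 well-read genes higher (median 0.12) and 20 of 40 tested genes higher, and the median changed sign without control replicate 1 or Casp2-depleted replicate 4. Cohesin and chromosome structure was mixed, with 6 of 15 higher, and held genes of both kinds. Beside Stag1, the cohesin regulator gene Pds5a was lower in every Casp2-depleted library, at 160.5, 140.4, 118 and 205 CPM against 118, 105, 59.2 and 46.4 CPM (-0.92, SE 0.82). At the centrosome 4 of 13 genes were higher, and Cep135, a protein of the centriole wall, was lower without overlap, at 107, 153, 101 and 147 CPM against 69.6, 21.4, 22.0 and 97.7 CPM (-1.27, SE 1.09). Among microtubule-associated proteins and motors, 10 of 25 were higher (median -0.23), and Map7d1 was lower without overlap (-1.18, SE 1.12). Without TMM factors the separation of Stag1, Pds5a, Cep135 and Map7d1 was lost, and that of Prim2 and Anln held.

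**Figure D5:**
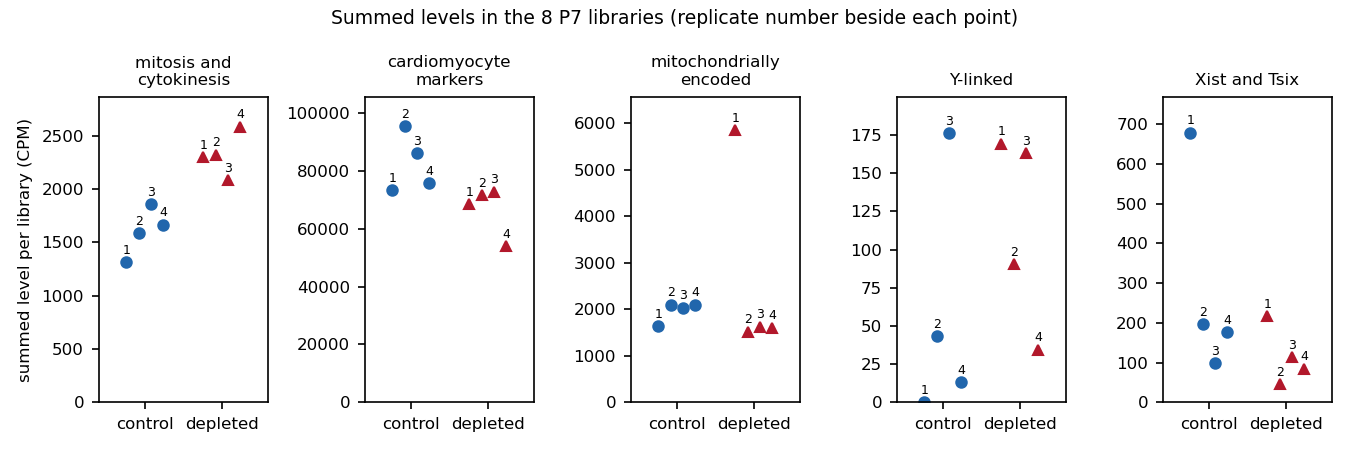
Summed level of gene lists in CPM of reads on genes, before TMM scaling, in each library of P7, one point per library with control and Casp2-depleted libraries side by side. The mitosis and cytokinesis sums are 1314 to 1858 CPM in control and 2086 to 2584 CPM in Casp2-depleted libraries, and the cardiomyocyte marker sums are 73330 to 95401 CPM and 54030 to 72706 CPM.

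RNA processing genes leaned to lower values. Of 40 well-read SR proteins, hnRNPs and speckle proteins, 35 were lower with a median of -0.26 (32 without TMM factors), and Ddx5 was the 1 without overlap. The median was -0.07 without control replicate 2 and -0.08 without Casp2-depleted replicate 4. Hnrnpm, a splicing repressor, went the other way, at 281, 593, 338 and 297 CPM in control and 283, 874, 751 and 419.7 CPM in Casp2-depleted libraries (0.62, SE 0.52). Of 17 splicing regulators of muscle, 16 were lower with a median of -0.35 (13 without TMM factors), which was -0.10 without Casp2-depleted replicate 4 and -0.70 without replicate 1 of the same genotype. Among them Khdrbs3, a STAR-family RNA-binding protein, was lower in every Casp2-depleted library, at 122, 148, 129 and 119 CPM against 115, 87.2, 95.6 and 31.6 CPM (-0.65, SE 0.89). Of 9 nuclear long noncoding RNAs 6 were lower, and Kcnq1ot1, the imprinted RNA that silences its neighbours, was higher without overlap, at 43.9 to 74.2 CPM against 75.3 to 142 CPM (0.66, SE 0.78). Kcnq1ot1 lies within Kcnq1 on the opposite strand, and its separation was lost both with RLE size factors and without TMM factors. Ubiquitin ligases and other protein turnover genes had 27 of 35 lower, with Herc1 the one without overlap, at 244, 166, 223 and 237 CPM against 123, 132, 111 and 125 CPM (-0.82, SE 0.64), though not without TMM factors. Among histone-modifying enzymes 25 of 40 were lower, but 20 of 40 without TMM factors.

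In energy metabolism, 14 of 17 well-read genes of fatty acid metabolism were lower with a median of -0.33 (13 without TMM factors), and no member was separated. That median was -0.71 without Casp2-depleted replicate 1 and -0.14 without control replicate 1. Slc27a1, a fatty acid transporter, was at 377, 799, 245 and 576 CPM in control and at 479.7, 322, 199 and 52.7 CPM in Casp2-depleted libraries (-0.92, SE 0.54). Of 17 nuclear-encoded genes of oxidative phosphorylation 14 were lower (12 without TMM factors) with a median of -0.21, which was -0.72 without Casp2-depleted replicate 1 and -0.02 without control replicate 1. Ndufa10, a subunit of complex I, was at 405, 440.0, 252 and 281 CPM against 265, 178, 202 and 134 CPM (-0.82, SE 1.11), and the groups met between 252 and 265 CPM. Glycolysis and glucose use had 11 of 15 lower (median -0.24), and both genes without overlap belong to glycogen. Gys1, the glycogen synthase of muscle, was at 209, 238, 164 and 220.5 CPM against 150.4, 90.4, 104 and 155 CPM (-0.73, SE 0.70), and Pygm, the muscle glycogen phosphorylase, was at 218, 345, 187 and 234 CPM against 181, 176, 175 and 16.9 CPM (-0.84, SE 0.73). The separation of both was lost without TMM factors. The mitochondrially encoded genes had a median of 0.13, with 6 of 7 higher, but -0.61 without Casp2-depleted replicate 1 and -0.24 with the replicate block.

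Of the p53 pathway, which lies downstream of the PIDDosome in cancer and liver cells, 4 genes were well read. All 4 were lower, with a median of -0.58, and of all 16 tested members 6 were higher. Mdm4, an inhibitor of p53 related to MDM2, was at 388, 305, 236 and 173 CPM in control and at 249, 141, 128 and 75.9 CPM in Casp2-depleted libraries (-0.89, SE 0.67). Each Casp2-depleted library of Mdm4 was below the control of its number, and the groups overlapped. In the Hippo pathway, a brake on growth in the heart, 9 of 12 were lower, and Stk3, one of its kinases, was narrow and without overlap, at 142, 143, 141 and 156 CPM against 117, 79.3, 94.9 and 87.2 CPM (-0.62, SE 0.66), a separation that was lost without TMM factors. Genes of growth factor receptor signalling were split, with 13 of 25 higher, but 18 of 25 without TMM factors, and calcium channels had 4 of 9 higher on both scales. Nuclear receptors and metabolic regulators had 16 of 19 lower (median -0.20, and 13 of 19 without TMM factors), and cardiac transcription factors 12 of 18 (median -0.10). Without control replicate 2 the nuclear receptor median was 0.05. The median of the transcription factors was above 0 without control replicate 1 or 2 or Casp2-depleted replicate 3 or 4, and with limma-voom and quantile normalization.

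The most read genes did not separate the genotypes. The groups overlapped for each of the 10 genes with the highest mean level. Malat1, a nuclear long noncoding RNA, was at 66765, 116166, 62019 and 48792 CPM in control and at 101230, 53406, 39122 and 29995 CPM in Casp2-depleted libraries (-0.39, SE 0.76). Ttn, which encodes the giant filament titin, was at 23615, 60626, 44027 and 31774 CPM against 25949, 25592, 31549 and 15025 CPM (-0.71, SE 0.79). Myh6, the adult myosin heavy chain, was at 12361 to 21110 CPM against 7608 to 13378 CPM (-0.50, SE 0.58). Control replicate 2 was the highest control for each of these 3 genes and had the lowest TMM factor of the 8 libraries, 0.575 against 0.702 to 0.983.

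The sexes of the pooled hearts are not given in the sources used here, and the pools were unlike in sex-linked RNA. The summed level of 4 Y-linked genes was 0, 43.4, 176 and 13.5 CPM in control and 169, 90.6, 163 and 34.4 CPM in Casp2-depleted libraries. Xist, the RNA of the inactive X chromosome, was at 789, 334, 105 and 212 CPM in control and at 263, 66.6, 126 and 77.3 CPM in Casp2-depleted libraries (-1.43, SE 1.55). Control replicate 1 held no Y-linked read and the most Xist. Both measures overlapped between the genotypes, and the part of sex in the differences above was not tested.

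The direction of the difference ran with the length of the gene, a relation examined after the data had been seen. Reads were counted over the exons and introns of each gene, and the part of this in the relation was not tested. Of 332 well-read genes that span under 20 kb, 36.1% were higher in Casp2-depleted nuclei with a median of -0.20, against 54.0% of 940 genes that span over 200 kb, with a median of 0.04. Between these, the shares were 35.6%, 42.1% and 47.4% for genes of 20 to 50, 50 to 100 and 100 to 200 kb. Without single P7 libraries, the median was -0.30 to -0.04 for the shortest genes and 0.00 to 0.10 for the longest. The genes that were separated differed in the same way, with a median span of 99.0 kb for the 29 higher and 51.2 kb for the 35 lower genes, against 90.5 kb for all well-read genes. In single libraries the share of well-read reads on genes under 20 kb was 15.7, 22.0, 19.5 and 19.4% in control and 20.1, 19.8, 17.6 and 15.0% in Casp2-depleted libraries, and overlapped. The median of the shortest genes was 0.37 at P1 and -0.58 at P14, where that of the longest was 0.00 and 0.02.

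The genes that separated the genotypes at P7 did not do so in one direction at the other days. These genes were picked for their P7 values, so their P7 medians are large by that choice. A smaller median at another day is therefore no sign of a change between days. For the 29 higher genes, the median log2 difference was 0.84 at P7, 0.01 at P1 and -0.36 at P14, and 15 of 29 were higher at P1 and 11 of 29 at P14. For the 35 lower genes the medians were -0.92, 0.20 and -0.28, and 24 were higher at P1 and 14 at P14, beside 60.7% and 44.8% of all well-read genes. Ddx5 was -1.31 at P7 and 2.07 at P1, Agrn -1.18 and 2.13, and Incenp 0.70 and -1.01, whereas Nr0b2 was 1.82 and 0.90. The SE at P1 was 0.81 for Ddx5, 1.11 for Agrn and 0.98 for Nr0b2. In the edgeR test of the difference itself, 0 genes were called between P7 and P1 (0%, against 66 with DESeq2 and 2 to 4 with limma-voom), and 5 between P7 and P14 (0.0245%). These 5 were Tnni1, Lig1, Pdgfa, Spaca6 and Psma4. Lig1, the DNA ligase of replication, had a P7 difference of 0.45 and an interaction of 8.43 (adjusted p = 0.000256), and Tnni1, the slow troponin I, had 0.32 and -7.29 (adjusted p = 5.2e-07). The P7 differences of all 5 genes lay between -0.45 and 0.45, and the calls rest on few reads at P14. Lig1, Pdgfa and Spaca6 had 0 reads in the 3 P14 Casp2-depleted libraries, but were also unread in all P14 controls other than 1 for Lig1 (61.5 CPM), 1 for Spaca6 (35.3 CPM) and 2 for Pdgfa (6.36 and 60.0 CPM). Tnni1 had 0 reads in the P14 controls and was at 0.655, 3.15 and 43.7 CPM in the P14 Casp2-depleted libraries. With the replicate block Tnni1 was called but the other 4 genes were not, and none of the 5 was called with filterByExpr or by either limma-voom fit.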

How the data were processed

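RNA of PCM1-sorted ventricular cardiomyocyte nuclei was read with QuantSeq 3′ FWD low-input libraries and 100 bp single-end reads. The authors trimmed reads with cutadapt 4.0, aligned them to GRCm39 with STAR 2.6.1e and deposited raw counts per gene from HTSeq 2.0.3, whose strand setting is not given in the sources used here. The counts cover exons and introns. Identifiers were named from an annotation of the same build (56236 of 56923, with 99.5% of the reads).

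Groups and replicate numbers came from the sample labels, and each replicate is a pool of hearts. The 6 group means were fitted in edgeR 4.0.16 (R 4.3.3, TMM factors, robust quasi-likelihood F-test, 15 residual degrees of freedom) over 21 libraries. The 3 libraries that the authors excluded for low quality (P1 control replicate 1, P14 control replicate 3, P14 Casp2-depleted replicate 1) were left out. Genes entered with a sum of 10 or more reads, read in 3 or more libraries. Calls needed a Benjamini-Hochberg adjusted p under 0.05 together with a log2 difference of more than 1 in size. The standard error is the difference divided by the root of F. Single library measures were compared by exact permutation. Replicates of P7 differed by more than sampling noise (chi-square 17.8 to 44.2 times its degrees of freedom).

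The sample titles give a replicate number and do not say that same-numbered libraries form a batch or a pair. Deviations from the group means correlated at 0.40, 0.18, 0.19 and 0.23 between same-numbered libraries of P7, all over 0.1, so the numbers were taken to pair them. Differently numbered P7 libraries correlated at -0.34 to 0.26, and same-numbered libraries at -0.14 to 0.30 at P1 and -0.05 to 0.01 at P14, so the pairing rests on P7 alone.

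Named by rule were PIDDosome members, the 12 higher and 12 lower separated well-read genes of the largest statistic, the most read and the extreme members of each list, the 10 most read genes, sex-linked genes, interaction calls and calls of the alternative with most calls. Genes singled out within a list or called with the block were named after their values were seen. Genes, lists and tests were chosen with earlier results of these data known. The fits were also run on simulated counts, and the outcome is not given here. Alternatives were other scalings, filters and sets of libraries, DESeq2 1.42.0, limma-voom (limma 3.58.1), thinning to 891817 reads, the replicate block, and leaving out each P7 library.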

Additional observations from a re-analysis of the deposited data

Results flagged for a closer look

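In 174 groups of 4 libraries, 1 for each gene or library measure named above and each genotype, 16 libraries lay farther from the others of their group than the 95% critical value of Dixon's test for 4 values allows. Chance alone flags about 1 in 20 such groups.

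Casp2-depleted replicate 1 was the library in question most often. Its mitochondrially encoded RNA came to 5854 CPM against 1521 to 1626 CPM in the other Casp2-depleted libraries. It was also the highest for Ivns1abp (603 CPM against 49.2 to 109 CPM), Mff (108.4 CPM against 0 to 1.38 CPM), Pbxip1 (236 CPM against 26.7 to 61.9 CPM) and Myl3 (348 CPM against 60.3 to 109 CPM). Control replicate 1 was low in mitochondrially encoded RNA, with 1636 CPM against 2035 to 2100 CPM in the other controls, and low in Pbxip1, with 134 CPM against 230.2 to 234 CPM. The same library was high in Entrep1 (196 CPM against 60.7 to 81.2 CPM) and in X-inactivation RNA (679 CPM against 99.5 to 198 CPM).

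In control replicate 2 the levels of Crebbp (983 CPM against 475 to 490.4 CPM) and of Pidd1 (16.6 CPM, with 0 reads in the other controls) stood apart. Casp2-depleted replicate 2 was high in Atad2 (457 CPM against 193 to 203 CPM) and in Slc39a11 (166 CPM against 104 to 107 CPM). Casp2-depleted replicate 3 held the only Pidd1 reads of its group (6.19 CPM). Casp2-depleted replicate 4 was low in Pygm (16.9 CPM against 175 to 181 CPM), and control replicate 4 was high in Stk3, at 156 CPM against 141 to 143 CPM, a narrow group.

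The genotype difference at P7 differed from that at P14 for 5 genes by the interaction test of edgeR. The interaction on the log2 scale was 8.43 for Lig1 (0.45 at P7, -7.99 at P14), 8.35 for Pdgfa (0.25 and -8.09), 6.74 for Spaca6 (-0.45 and -7.19), 3.75 for Psma4 (0.28 and -3.47) and -7.29 for Tnni1 (0.32 and 7.61). The fitted P14 values of genes with 0 reads in a whole genotype depend on the fit and are no bounds.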

How the results depend on the processing

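The count of genes called at P7 was 0 in every alternative other than DESeq2 (25), limma-voom with quantile normalization (1) and the fit of the 8 P7 libraries with the replicate block (8), and it was 0 without any single P7 library. The count at an unadjusted p below 0.05 was 860, against 376 with filterByExpr, 522 with only the 8 P7 libraries, 107 with only their well-read genes (266 with the replicate block), 239 with the replicate block over 21 libraries, 190 with DESeq2 and 457 to 638 without single libraries. The genotype difference at P7 against that at P1 gave 66 genes with DESeq2, 4 with limma-voom and TMM, 2 with limma-voom and quantile normalization, and 0 otherwise. Against P14 it gave 246 with DESeq2, 0 with filterByExpr, 2 with the replicate block (1 of them, Tnni1, shared with the 5) and 4 to 6 without single P7 libraries, where Psma4 was lost in 5 of 8 cases. Limma-voom called 6 with TMM and 7 with quantile normalization, sharing 0 of the 5, and all 24 libraries gave 6, sharing 2 (Spaca6 and Tnni1). The well-read genes without overlap were 131 at a minimum of 25 CPM, 25 at 100 CPM and 119 to 419 without single libraries, where 3 libraries overlap less easily with 4. For these counts the cause was not tested.

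Of 68 named genes, 4 changed direction in an alternative, and none of the 24 well-read genes of the largest statistics did. Casp2 was at 0.0088 with limma-voom and quantile normalization and at -0.74 to 0.33 without single libraries, Pidd1 at -5.70 to 4.29, Pdgfa at -0.037 to 0.74 and Psma4 at -0.055 to 0.61, each the range without single P7 libraries. Of 36 list medians, 20 kept their sign in every alternative. The replicate block changed no call of a gene named here other than the 8 given with it and the calls of Lig1, Pdgfa, Spaca6 and Psma4 between P7 and P14, which were lost. Precision limits the test to large differences: 874 of 4053 well-read genes had an interval within 2-fold, and replicates differed by more than counting error. Intervals and counts of 0 cover these pools only.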
